A study of Mus musculus with 76 samples.

Results

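The genes described here are the variable segments of the T cell receptor loci, 64 of the 37980 genes in a table of RNA-seq values for sorted mouse blood and thymus cells. They were taken as every gene whose mouse symbol starts with Trav, Trbv or Trdv and a digit, or with Tcrg-V. These were 33 segments of the alpha chain, 20 of the beta chain, 5 of the delta chain and 6 of the gamma chain. The annotation that gave the symbols lists 128 alpha, 35 beta, 6 delta and 6 gamma segments, and segments with no row in the table were not analysed here. By that annotation 58 of the 64 members are functional and 6 are pseudogenes. Of the members, 61 reached 1 FPKM (fragments scaled by transcript length and by the size of the library) in at least 2 libraries and were tested. Trav9d-4 and Trav6n-5 did not reach that, and Trav4d-2 was listed at 0 in every library.

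A T cell receptor is a pair of chains, alpha with beta or gamma with delta, and the gene of each chain is put together during development in the thymus. The enzyme made of Rag1 and Rag2 joins a variable segment to joining segments, with a diversity segment between them in the beta and delta loci, and Dntt adds bases at the joins. Gamma, delta and beta genes are joined in cells that carry neither CD4 nor CD8 (the DN stages), and a beta chain that pairs with the pre-T chain Ptcra drives cells past DN3. The alpha gene is joined in cells with both CD4 and CD8 (DP), starting from variable segments near the 3′ end of the locus and moving toward the 5′ end in later rounds, and each join removes the delta locus that lies inside it. RNA of a variable segment can come from a joined gene or from a segment that has not been joined.

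The mice were C57BL/6, each library held RNA with poly(A) tails from 1000 sorted cells, and a total of 76 libraries in 24 groups were labelled, of which 75 were distinct. Replicate 3 of the pro/pre-B group copied replicate 1 in every gene and was left out. The 15 natural groups were, from bone marrow, B cells, pro/pre-B cells, T cells, myeloid cells, early T progenitors (ETP), stem cells (HSC) and progenitors with several fates (MPP), and, from thymus, ETP, DN1, DN2, DN3, DN4, DP, CD4 single positive (CD4 SP) and CD8 single positive (CD8 SP) cells. The 9 induced groups were ETP of the bone marrow and the same 8 thymic stages. Induced cells descended from pro/pre-B cells of the bone marrow that were infected in culture with a virus carrying the transcription factor Hoxb5, sorted, and put into recipients that had received sublethal irradiation. The labels name no control virus, no age and no time after transplantation, and they do not say how induced cells were told from the recipients' own. They also do not say whether the 2 to 4 libraries of a group came from separate mice. The p-values measure the spread between libraries within groups, taken over all 24 groups together, and that spread may be technical.

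The 3′ ends of the segments that lead the results are shown first, because the end of a variable segment carries the cysteine at which the receptor's most variable loop begins. Each line is the last 60 bases of the GENCODE vM21 transcript, on the transcript's strand, with the position of the gene in GRCm38. The codon of the cysteine is in capitals where the search found it: the last match to TACNNNTGT, TACNNNTGC, TATNNNTGT or TATNNNTGC in this window, on the transcript strand, so that no 2 motifs overlap. A match stood in 61 of the 64 members (95.3%), in 142 of 144 annotated functional segments (98.6%) and in 21 of 34 annotated segment pseudogenes (61.8%). Among the members, the 3 Trbv13 segments follow one another along the locus, and their printed ends differ in some of the bases before the cysteine.
Trbv13-1 (chr6:41116007-41116468, +): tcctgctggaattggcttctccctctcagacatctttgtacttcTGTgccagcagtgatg
Trbv13-2 (chr6:41121396-41121832, +): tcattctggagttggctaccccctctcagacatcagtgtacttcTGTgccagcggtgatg
Trbv13-3 (chr6:41130147-41130585, +): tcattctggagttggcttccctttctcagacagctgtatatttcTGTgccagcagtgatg
Trbv26 (chr6:41227505-41227993, +): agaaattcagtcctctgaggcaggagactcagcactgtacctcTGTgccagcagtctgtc

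In the gamma locus, Tcrg-V1 and Tcrg-V3 have the same last 60 bases and are 95.7% identical over their aligned length, with 15 mismatches, while Tcrg-V4 differs from both. In the delta locus, Trdv5 lies on the strand opposite to the other delta segments.
Tcrg-V4 (chr13:19184974-19185506, +): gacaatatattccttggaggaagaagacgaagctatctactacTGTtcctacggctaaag
Tcrg-V1 (chr13:19339989-19340454, +): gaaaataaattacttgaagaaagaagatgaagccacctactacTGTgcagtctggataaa
Tcrg-V3 (chr13:19242845-19243301, +): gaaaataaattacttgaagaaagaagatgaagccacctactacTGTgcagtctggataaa
Trdv1 (chr14:53881612-53882217, +): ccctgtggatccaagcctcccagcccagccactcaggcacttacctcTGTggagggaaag
Trdv5 (chr14:54148662-54149294, -): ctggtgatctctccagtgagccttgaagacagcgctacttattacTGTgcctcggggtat

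The alpha locus holds blocks of duplicated segments, so its members are the ones whose reads are hardest to place. Of the 33 alpha members, 22 were at least 95% identical to another annotated segment, and for 10 of these the nearest copy has no row in the table. Trav8-1 and Trav8d-1 are 98.8% identical and share their last 60 bases. Trav13-1 and Trav13d-1 are 96.4% identical. The levels of such pairs are therefore uncertain as single-segment values, since the way the authors' counting treats reads that fit several places is not given in the sources used here. No beta member reached that identity.
Trav15-2-dv6-2 (chr14:53649404-53649994, +): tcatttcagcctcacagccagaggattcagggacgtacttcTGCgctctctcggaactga
Trav14n-3 (chr14:53370077-53370575, +): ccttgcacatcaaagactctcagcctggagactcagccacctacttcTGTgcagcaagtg
Trav8-1 (chr14:53469756-53470232, +): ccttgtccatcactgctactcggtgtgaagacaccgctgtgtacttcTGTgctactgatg
Trav13-1 (chr14:53545014-53545525, +): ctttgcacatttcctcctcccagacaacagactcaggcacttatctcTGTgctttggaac

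Summed FPKM per library ran from 667660 to 2004005 over all genes. Depth, read from the spacing of low values of long genes, was 0.97 to 12.2 fragments per FPKM and kilobase (median 4.33). Segment transcripts are short (289 to 566 bases), so 1 fragment is often worth about 1 FPKM, and only 60 of the 1701 member values above 0 were under 1 FPKM. Hoxb5 itself was above 0 in every induced library (0.0662 to 3.47 FPKM) and at most 0.0891 FPKM in the natural thymic groups. Its levels overlapped in ETP of the bone marrow, at 0.185 to 0.404 FPKM in natural and 0.0976 to 0.618 FPKM in induced libraries. In HSC it was at 2.84 to 5.81 FPKM. A list of 8 B cell markers summed to 7641 to 8030 FPKM in induced ETP of the bone marrow, against 68.7 to 86.9 FPKM in natural ETP there, while 8 T cell markers summed to 4.66 to 8.96 FPKM. The libraries labelled natural thymic ETP and natural DN1 carried dendritic cell markers (summed 1122 to 1997 and 574 to 815 FPKM), against 4.22 to 11.8 and 16.4 to 85.2 FPKM in the induced libraries of those labels. Of the 8 dendritic markers, 1 was at 0 throughout natural and 2 throughout induced thymic ETP, and none in either DN1 group. In bulk libraries, fewer cells with a transcript and less transcript per cell cannot be told apart.

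Variable segments were the RNA of thymocytes and T cells, and the loci differed in when they appeared. All 64 members were listed at 0 in all pro/pre-B libraries, the cells from which the induced cells descend, and in all B cell libraries. They were also at 0 in both induced ETP libraries of the bone marrow, although Rag1 stood at 12.6 to 21.7 FPKM there. In thymic ETP the beta total was near 100 FPKM in both sources, with 106 and 102 FPKM in natural and 107, 118 and 79.7 FPKM in induced libraries. By group mean, beta totals were largest in DP cells, where they reached 5218 to 6216 FPKM in natural and 5270 to 7394 FPKM in induced DP cells, while the gamma total was at most 10.7 FPKM in DP cells. The order of stages was not even, since induced DN2 cells had less beta (388 and 647 FPKM) and gamma (146 and 132 FPKM) than induced DN1 and DN3 cells. Natural T cells of the bone marrow had 2139 to 2553 FPKM of beta, 123 to 143 of alpha, 5.83 to 13.4 of gamma and 0 to 6.79 of delta segments.

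**Figure D1:**
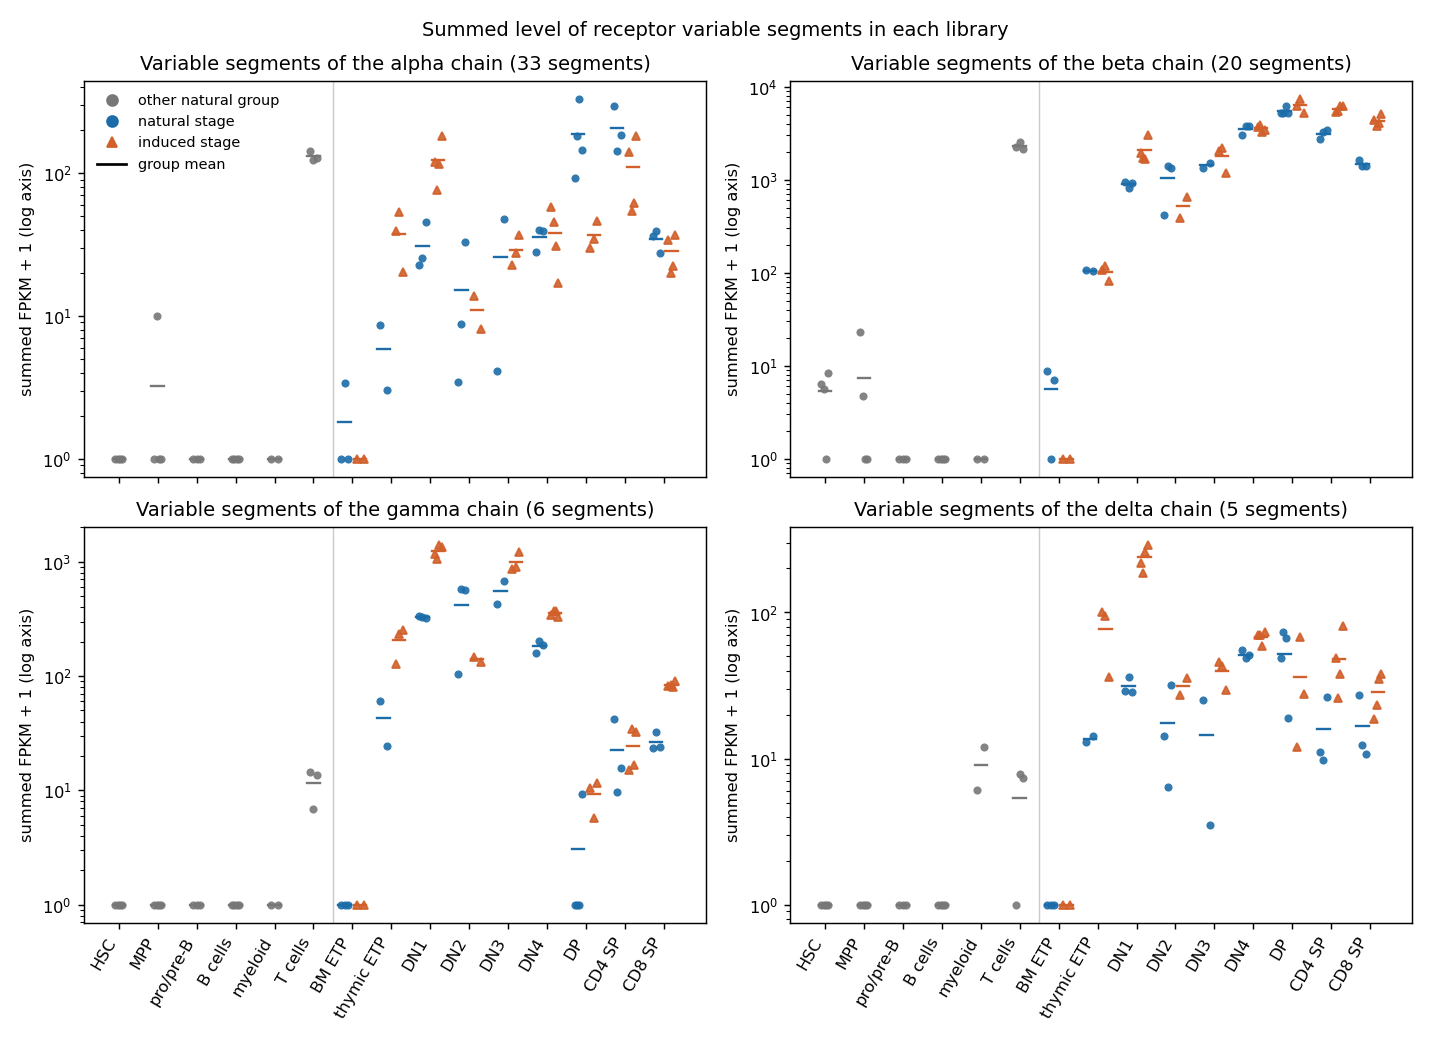
Summed FPKM + 1 of the variable segments of each chain (log axes) in every library, with 1 point per library, blue circles for natural stages, orange triangles for induced stages, grey circles for other natural groups and bars for group means. Beta totals are highest in DP cells of both sources (group means), gamma totals drop from DN4 (159 to 203 FPKM natural, 331 to 370 FPKM induced) to DP, and alpha totals of induced DP cells lie below those of natural DP cells.

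Segment calls between sources were most numerous at DN1, where segments of the beta, gamma and delta chains were higher in induced cells, and absent at DN4. A call is an adjusted p under 0.05 in the limma fit over all genes, and the share of all 17416 tested genes past it is given beside each count. At DN1, 21 of 61 segments were higher (34.4%) against 9.90% of all genes, and 2 were lower (3.28%) against 8.93%. At the thymic ETP stage 6 were higher (9.84%) against 4.49% of all genes, and 0 lower against 3.78%. At DN2, 0 were higher against 0.879% of all genes and 6 lower (9.84%) against 0.626%, all of them beta segments. At DN3, 3 were higher (4.92%) against 2.35%, and 0 lower against 1.19%. At DN4 no segment passed, against 0.390% of all genes higher and 0.350% lower, and 4 had an unadjusted p under 0.05. That DN4 count became 1 with a replicate block, 1 when the 2 groups were fitted alone, and 5 with library quality weights.

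In DP cells, 2 segments were higher in induced cells (3.28%) against 4.83% of all genes, and 8 were lower (13.1%) against 5.53%, of which 7 were alpha segments. In CD8 SP cells, 11 were higher (18.0%) against 5.63%, of which 9 were beta segments, and 1 was lower (1.64%) against 5.01%. The CD4 SP counts, 8 higher and 8 lower (13.1% each), lay near the 14.0% and 12.4% of all genes and are given below only by locus: 4 beta and 2 delta segments but 2 alpha segments were higher, and the 8 lower were all alpha segments. In ETP of the bone marrow, 0 segments were higher against 14.4% of all genes and 1 lower (1.64%) against 16.8%. That segment was Trbv13-2, with 7.76, 0 and 3.33 FPKM in natural libraries and 0 in both induced ones, so the groups overlapped. Its adjusted p of 0.00399 became 0.112 without natural library 1 and 0.367 when the 2 groups were fitted alone.

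**Figure D2:**
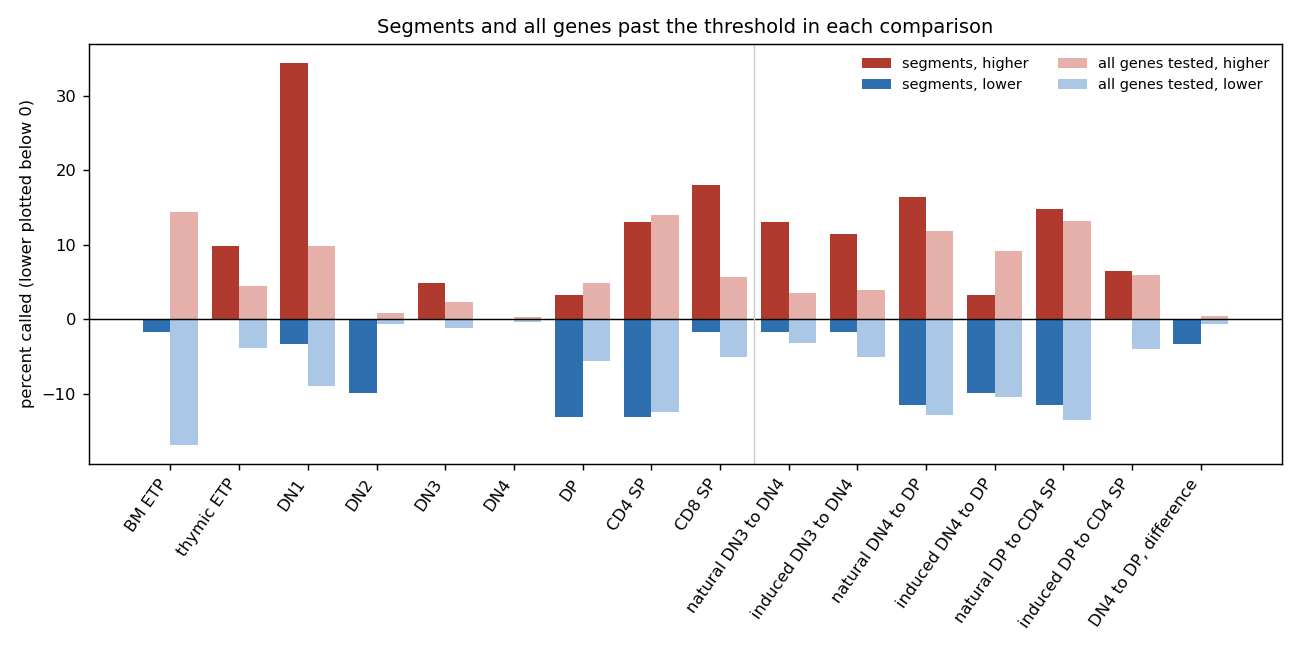
Percent of the 61 tested segments (dark bars) and of all 17416 tested genes (pale bars) past the threshold in each of 16 comparisons, with higher in red above 0 and lower in blue below 0. Left of the grey line, induced is set against natural cells at each stage; right of it, the later stage is set against the earlier one within a source. At DN1 34.4% of segments against 9.90% of genes were higher, and at DN4 no segment passed.

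The beta chain is the first described, since its total was the largest from DN1 onward. In thymic ETP, Trbv13-2 led the beta RNA in 4 of 5 libraries. It stood at 97.2 and 65.6 FPKM in natural libraries (91.8% and 64.0% of the beta total) and at 72.9, 70.8 and 31.6 FPKM in induced ones (68.2%, 59.8% and 39.7%). Its levels overlapped between the groups. Trbv16, a segment in the middle of the locus, led in induced library 3 with 51.5%. It was at 3.52 and 8.08 FPKM in natural and 27.2, 26.4 and 41.1 FPKM in induced libraries. The groups did not overlap, and Trbv16 was higher in induced cells (log2 fold change 2.32 ± 0.46, SE, adjusted p = 0.000263, but 0.280 when the 2 groups were fitted alone). Beta constant genes were far more abundant than the variable segments at this stage, so that the variable total was 3.16% and 3.69% of the constant total in natural and 1.58% to 3.01% in induced cells. By DN4 that ratio was 77.2% to 98.3% in natural and 91.6% to 109% in induced cells.

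At DN1 the beta repertoire, meaning the split of the beta total over its segments, differed between sources beyond its spread within them. Natural DN1 cells were led by Trbv13-2 in each library, with 258, 159 and 292 FPKM (27.5%, 19.4% and 31.7% of the beta total). In induced DN1 cells it reached 148, 153, 116 and 317 FPKM, which was 7.55%, 8.91%, 7.01% and 10.4%, so its shares did not overlap although its levels did. Trbv29 made up 11% to 13.8% of natural and 2.75% to 9.42% of induced totals, also without overlap. These belong to a list of 5 beta segments used often by innate-like T cells (Trbv1, Trbv13-2, Trbv13-3, Trbv19 and Trbv29), which together held 55.3% to 62.5% of the beta total in natural and 29.5% to 36.0% in induced DN1 cells. The 5 did not all go one way. Trbv13-3 was at 4.7% to 7.27% in natural and 2.26% to 3.58% in induced libraries, Trbv1 overlapped (6.8% to 13.2% against 5.89% to 13.6%), and Trbv19 was at 2.75% to 5.11% in natural but at 8.77%, 8.82%, 6.8% and 1.78% in induced libraries. Trav1, the alpha segment of mucosal-associated invariant T cells, was at 1.73, 0 and 1.59 FPKM in natural and 0 in the 4 induced DN1 libraries. The other alpha segments listed for innate-like T cells, Trav11 and Trav11d, have no row in the table and could not be measured. Natural killer markers summed to 3711 to 4528 FPKM in natural and 1976 to 2504 FPKM in induced DN1 libraries, with none of the 8 markers at 0 throughout either group, and dendritic markers differed as given above; their part in these shares was not tested.

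The spread over segments was wider in induced DN1 cells. The effective number of segments, the inverse of the sum of squared shares, was 7.96, 9.21 and 6.78 in natural and 12.7, 12.8, 14.2 and 12.5 in induced libraries, with no overlap. Trbv26, near the 3′ part of the beta cluster, was at 8.51, 6.56 and 4.35 FPKM in natural and 54.7, 76.7, 101 and 153 FPKM in induced libraries. Every induced library lay above every natural one (log2 3.64 ± 0.72, adjusted p = 9.86e-05). Trbv15 likewise went from 40.2, 16.7 and 18.0 FPKM to 244, 130, 171 and 343 FPKM (3.12 ± 0.58, adjusted p = 3.91e-05). Trbv17 stood at 45.3, 0.954 and 30.1 FPKM in natural and 69.1, 140, 189 and 171 FPKM in induced libraries (3.25 ± 0.58, adjusted p = 1.71e-05, but 0.146 when the 2 groups were fitted alone). Of the 20 beta segments, 10 were higher and none lower in induced DN1 cells, and their median log2 difference was 1.53 against 0.00 over all genes. The calls of Trbv15, Trbv26 and Trbv31 held under every alternative tried. Trbv13-1, Trbv13-2, Trbv13-3 and Trbv29 did not pass the test.

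Beta levels in DN2 and DN3 cells rested on 2 or 3 libraries a group that differed strongly among themselves. Trbv26 stood at 2.13, 657 and 13.0 FPKM in the natural DN2 libraries, so that 1 library took 47.3% of its beta total from it. Trbv14 was at 48.8, 98.5 and 92.0 FPKM in natural and 12.2 and 0 FPKM in induced DN2 cells (-4.41 ± 0.62, adjusted p = 2.53e-06, but 0.0559 without induced library 2). Trbv2 (6.40, 12.8 and 52.0 FPKM) and Trbv13-3 (2.2, 45.1 and 34.9 FPKM) were listed at 0 in both induced DN2 libraries (adjusted p = 1.46e-06 and 9.40e-08). In DN3 cells, Trbv13-3 was at 6.30 and 5.24 FPKM in natural and 27.8, 87.5 and 81.4 FPKM in induced libraries (3.14 ± 0.51, adjusted p = 4.13e-05). All calls at DN2 and at DN3 were lost when the 2 groups were fitted alone, with 2 libraries in the smaller group.

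At DN4, the stage after beta selection, the beta totals of the sources overlapped, as did the shares of all but 2 segments. The totals were 3017, 3765 and 3837 FPKM in natural and 3720, 3906, 3243 and 3466 FPKM in induced cells. The likeness of shares, the sum over segments of the smaller of 2 libraries' shares, ran from 0.819 to 0.889 between natural and induced libraries, 0.871 to 0.886 among natural and 0.822 to 0.905 among induced libraries. At DN1 the same measure was 0.521 to 0.715 between sources, below the 0.786 to 0.853 among natural and 0.773 to 0.832 among induced libraries. The exceptions were Trbv19, with 8.44%, 11% and 9.41% in natural and 7.61%, 5.47%, 4.92% and 6.59% in induced libraries, and Trbv31, with 2%, 2.46% and 3.12% against 4.15%, 4.49%, 3.8% and 3.36%. Each DN4 library held 18 or 19 beta segments at 1 FPKM or more. The effective number was slightly higher in induced DN4 cells, at 14.1, 14.3, 12.5 and 13.7 against 11.8, 12.4 and 12, without overlap.

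**Figure D3:**
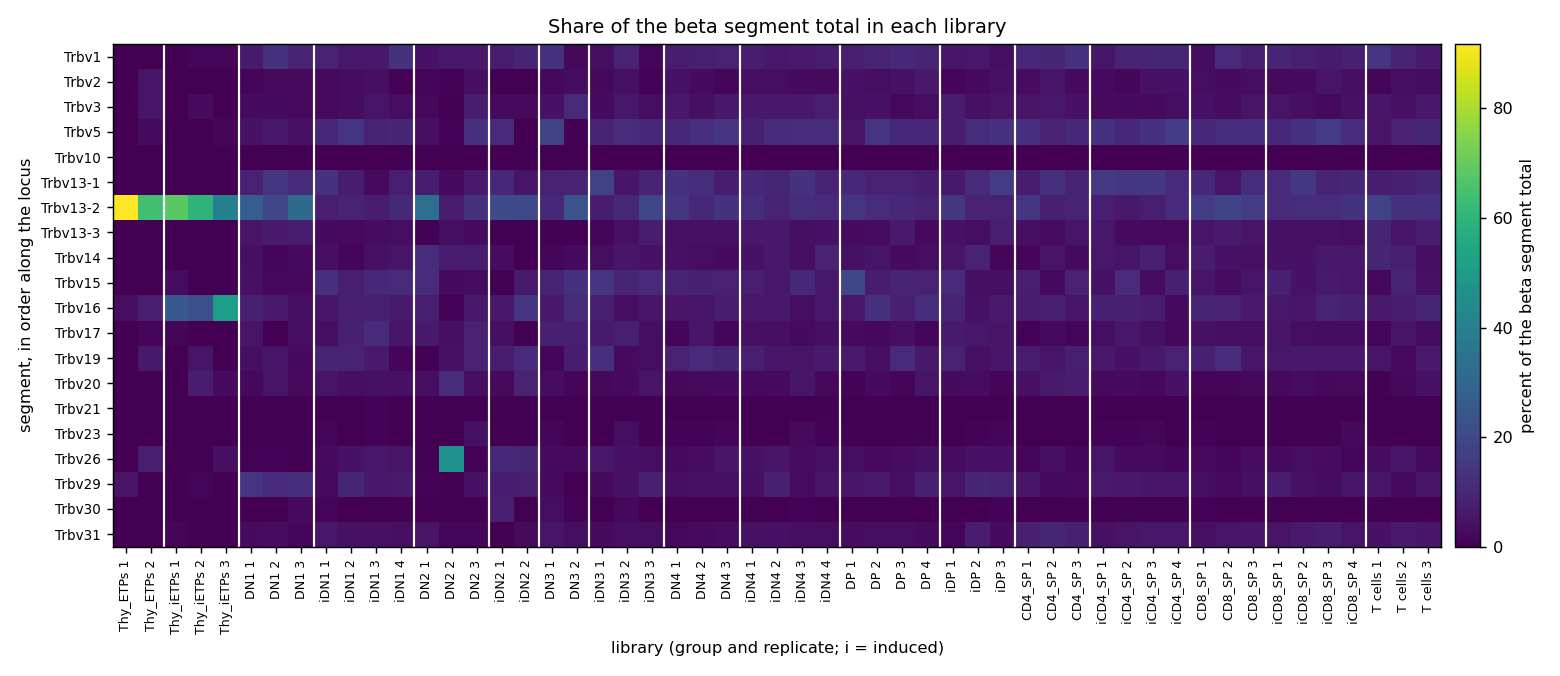
Share of the beta segment total, in percent, held by each of the 20 beta segments (rows, in order along the locus) in each thymic library and the bone marrow T cell libraries (columns, white lines between groups, i for induced). Trbv13-2 holds 39.7% to 91.8% in thymic ETP and 19.4% to 31.7% in natural DN1, Trbv26 holds 47.3% of natural DN2 library 2, and from DN4 on no segment exceeds 19.6%.

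In DP cells no beta segment was called between sources, and the totals overlapped. The highest share of a single segment there was Trbv15 in natural library 1, at 1035 FPKM and 19.6% of the total, against 383, 543 and 435 FPKM in the other natural libraries. In the cells labelled single positive the beta total of induced cells was the higher. CD4 SP libraries had 2733, 3268 and 3411 FPKM in natural and 5310, 5553, 6157 and 6254 FPKM in induced cells. CD8 SP libraries had 1621, 1415 and 1422 FPKM in natural and 4384, 3759, 4060 and 5128 FPKM in induced cells. In neither stage did the groups overlap, and the means differed 1.85-fold and 2.92-fold.

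Trbv13-1 was the beta segment higher in induced cells at both single positive stages under every alternative tried. In CD4 SP cells it was at 205, 415 and 310 FPKM in natural and 818, 810, 922 and 676 FPKM in induced libraries (1.42 ± 0.35, adjusted p = 0.00131). In CD8 SP cells it was at 165, 71.8 and 170 FPKM in natural and 501, 562, 352 and 514 FPKM in induced libraries (1.90 ± 0.35, adjusted p = 5.54e-05). Trbv13-2, the next member along the locus, was not called at either stage, with 385, 260 and 308 FPKM against 403, 349, 477 and 678 FPKM in CD4 SP cells (adjusted p = 0.380). In CD8 SP cells it was at 264, 261 and 224 FPKM against 486, 457, 466 and 685 FPKM, which did not overlap (1.05 ± 0.41, adjusted p = 0.102). Trbv31, the segment that lies beyond the constant genes of the locus, went from 65.8, 73.7 and 81.3 FPKM to 213, 245, 296 and 269 FPKM in CD8 SP cells (1.78 ± 0.42, adjusted p = 0.00213, 0.0989 with a pseudocount of 0.1). Trbv29 went there from 56.2, 32.7 and 51.9 FPKM to 310, 152, 128 and 266 FPKM, but its adjusted p of 0.0372 was above 0.05 in 10 of 15 alternatives. The median log2 difference of the 20 beta segments was 1.61 in CD8 SP cells, against 0.00 over all genes.

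The constant genes and the recombination genes were measured beside these differences. Trbc1 was higher in induced CD4 SP cells (945 to 1047 against 1836 to 2187 FPKM, 0.99, adjusted p = 0.000289) and was not called in CD8 SP cells, nor was Trbc2. The beta variable total was 28.8% to 36.8% of the constant total in natural and 65.3% to 102% in induced CD8 SP cells, without overlap. In CD4 SP cells that ratio overlapped, at 91.3% to 103% in natural and 86.6% to 123% in induced libraries. Of 10 recombination genes, 6 were higher and none lower in induced CD4 SP cells. Rag1 went from 1.02 to 9.22 FPKM up to 65.1 to 101 FPKM (4.07 ± 0.29, adjusted p = 4.03e-17), and Dntt from 19.5 to 30.2 FPKM up to 1036 to 1369 FPKM (5.64 ± 0.15, adjusted p = 1.96e-37). Ptcra was also higher (4.84 ± 0.47, adjusted p = 2.85e-12), and Cd3e, a signaling chain of the receptor, was lower (-1.21, adjusted p = 5.80e-05). In CD8 SP cells Dntt was 463 to 504 FPKM in natural and 1015 to 1135 FPKM in induced libraries. Natural CD8 SP libraries thus had more Dntt than natural CD4 SP ones. Gamma constant genes summed to 125 to 198 FPKM in natural and 249 to 309 FPKM in induced CD8 SP libraries. In natural CD4 SP cells that sum was 23.8 to 79.1 FPKM and in natural DP cells 2.56 to 14.2 FPKM. How mature the cells labelled CD8 SP were was not tested.

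Gamma segments were expressed from thymic ETP to DN4 in both sources, and 2 of them, Tcrg-V1 and Tcrg-V4, held most of the RNA. At DN1 the gamma totals were 338, 325 and 321 FPKM in natural and 1179, 1056, 1400 and 1345 FPKM in induced cells, a 3.80-fold difference of means with no overlap. Tcrg-V4 stood at 132, 127 and 119 FPKM in natural and 405, 403, 458 and 450 FPKM in induced DN1 libraries (1.76 ± 0.53, adjusted p = 0.0117, 0.157 with a pseudocount of 0.1). Tcrg-V3 went from 24.1, 22.9 and 17.9 FPKM to 106, 95.4, 163 and 176 FPKM (2.55 ± 0.69, adjusted p = 0.00449, 0.146 with that pseudocount). Of the 6 gamma segments, 4 were higher and none lower. Tcrg-V1 held 45.7% to 49.6% of the gamma total in natural and 45.2% to 49.5% in induced DN1 cells, which overlapped. The share of Tcrg-V3 did not overlap, at 5.57% to 7.13% in natural and 9.02% to 13.1% in induced cells. Because Tcrg-V1 and Tcrg-V3 are 95.7% identical, their levels are uncertain as single-segment values, like those of the alpha pairs.

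In thymic ETP, 3 of the 6 gamma segments were higher in induced cells (Tcrg-V1, Tcrg-V3 and Tcrg-V7). Tcrg-V4, Tcrg-V5 and Tcrg-V6 did not pass, and the mean of Tcrg-V6 was the lower in induced cells. Tcrg-V1 was at 5.09 and 6.50 FPKM in natural and 34.5, 78.2 and 78.6 FPKM in induced libraries (3.17 ± 0.86, adjusted p = 0.0107). The groups did not overlap, but the adjusted p was 0.105 without natural library 1, 0.0703 without natural library 2, 0.174 with a pseudocount of 0.1 and 0.226 when the 2 groups were fitted alone. The 2 groups differed in CD3 chains in the other direction: Cd3d, Cd3e, Cd3g and Ptcra, 4 of the 5 genes of that list, were lower in induced ETP, with Cd3e at -2.07 and Ptcra at -4.20 (adjusted p = 1.38e-07). Gamma totals did not overlap at DN3 (428 and 678 against 869, 897 and 1205 FPKM), DN4 (159, 203 and 185 against 340, 370, 367 and 331 FPKM) and CD8 SP (22.4, 31.2 and 22.9 against 81.4, 82.4, 79.3 and 89.2 FPKM), in each case with the induced cells above. At DN2 the order was the other way for 2 of 3 natural libraries, with 104, 582 and 568 FPKM against 146 and 132 FPKM.

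The step from DN4 to DP took gamma segments down in both sources. In natural cells Tcrg-V4 went from 85.2, 119 and 101 FPKM to 0 in all 4 DP libraries (adjusted p = 1.64e-15). In induced cells it went from 123, 155, 218 and 153 FPKM to 0, 4.73 and 7.19 FPKM (-5.47 ± 0.53, adjusted p = 2.70e-12). Tcrg-V1 went from 59.1, 61.7 and 59.6 FPKM to 0, 0, 0 and 8.33 FPKM in natural cells (-5.13 ± 0.72, adjusted p = 7.09e-08). In induced cells it went from 181, 155, 131 and 125 FPKM to 9.49, 0 and 1.52 FPKM (-5.63 ± 0.72, adjusted p = 9.11e-09). Tcrg-V3 and Tcrg-V7 were listed at 0 in every DP library of either source. DN4 and DP levels did not overlap for any of these 4 segments, and the 8 calls held under every alternative tried.

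All 61 segments together gave 10 higher (16.4%) and 7 lower (11.5%) calls in the natural DN4 to DP step, near the 11.8% and 12.8% of all genes. The induced step gave 2 higher (3.28%) against 9.20% and 6 lower (9.84%) against 10.4%. The lower calls shared 5 segments, which is 5 of 7 natural and 5 of 6 induced calls: Tcrg-V1, Tcrg-V3, Tcrg-V4, Tcrg-V7 and Trav15-2-dv6-2. The median log2 change of the 6 gamma segments was -3.13 in natural and -4.03 in induced cells, against 0.00 over all genes. The 4 gamma constant genes fell in both sources, for example Tcrg-C1 by -5.58 and -5.16 on the log2 scale. Of 8 genes of the gamma-delta lineage, 4 fell and 2 rose in both steps, with Sox13, a factor of gamma-delta T cells, among those that fell. The mean summed level of the list was higher in DP cells, at 152 to 198 FPKM in DN4 and 333 to 469 FPKM in DP cells of natural origin. In induced cells it was 125 to 174 and 170 to 288 FPKM, which overlapped.

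**Figure D4:**
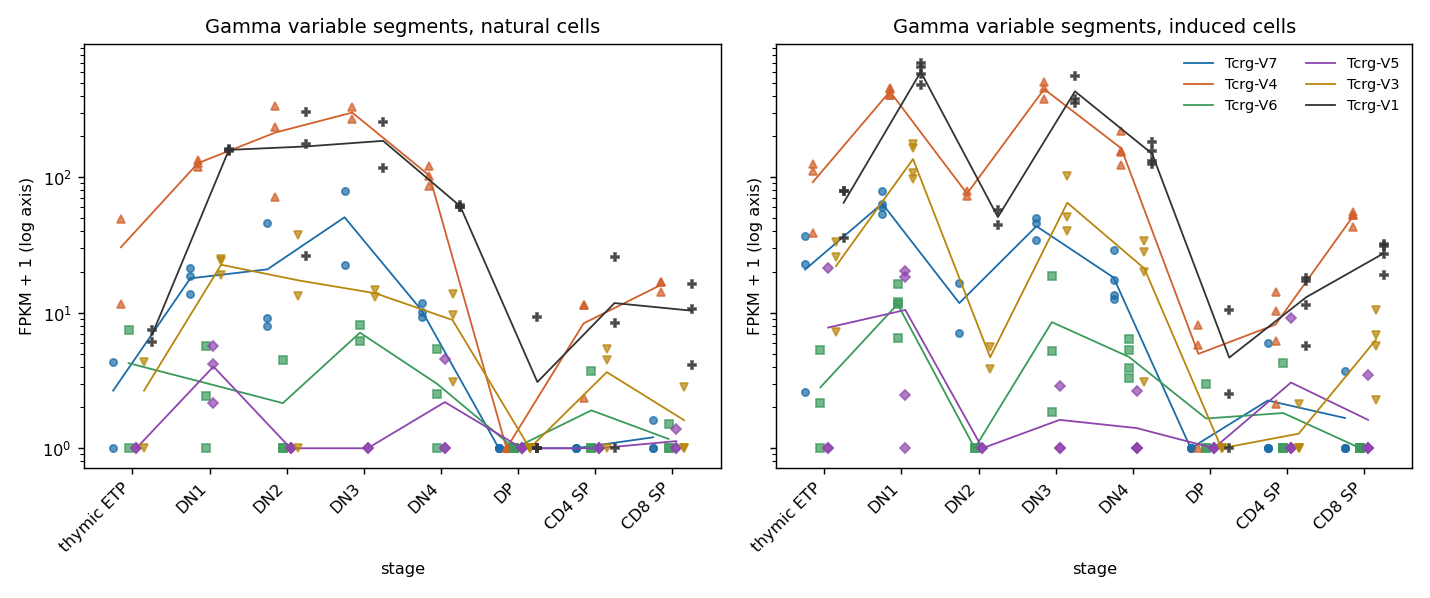
FPKM + 1 (log axis) of the 6 gamma variable segments at each thymic stage in natural (left) and induced (right) cells, with 1 point per library and lines through group means. Tcrg-V1 and Tcrg-V4 are the highest from DN1 to DN4, and all 6 segments are at 9.49 FPKM or less in every DP library.

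Delta segments were the fewest, and by group mean their total was below the beta total at every thymic stage. It was not the lowest of the chains throughout. In DP cells the mean delta total was 51.0 FPKM in natural and 35.0 FPKM in induced cells, against 2.08 and 8.3 FPKM of gamma. Trdv5, the segment on the opposite strand, led the delta total in every library of thymic ETP, DN1, DN2, DN3 and DN4 whose total reached 10 FPKM. At DN1 it stood at 21.7, 28.0 and 16.5 FPKM in natural and 144, 147, 176 and 172 FPKM in induced cells (2.83 ± 0.70, adjusted p = 0.00202, 0.0788 with a pseudocount of 0.1). Trdv2-2 went from 5.65, 5.60 and 7.79 FPKM to 55.4, 35.2, 52.7 and 63.9 FPKM (2.83 ± 0.61, adjusted p = 0.000352). Trdv1 went from 0.747, 0.740 and 0 FPKM to 12.3, 3.16, 18.8 and 35.2 FPKM (3.29 ± 0.60, adjusted p = 2.44e-05). None of the 3 overlapped between sources, and the calls of Trdv1 and Trdv2-2 held under every alternative. In total, 4 of the 5 delta segments were higher and none lower, with a median log2 difference of 2.83, and the delta total was 7.81 times the natural mean. The alpha segment Trav15-2-dv6-2, which can also be joined in the delta gene, was higher as well (11.5, 4.06 and 7.52 against 63.6, 29.5, 58.9 and 75.2 FPKM, 2.75 ± 0.64, adjusted p = 0.000866, 0.0579 with a pseudocount of 0.1). At DN1 the gamma-delta factor Sox13 was 24.7 to 28.7 FPKM in natural and 60.1 to 69.3 FPKM in induced cells, and 3 of the 8 gamma-delta genes were higher and 1 lower.

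The delta segments parted at the DN4 to DP step in natural cells. Trdv1 went from 2.76, 0 and 2.82 FPKM to 26.2, 51.6, 22.8 and 9.50 FPKM (3.33 ± 0.60, adjusted p = 1.32e-05), and this call held under every alternative. Trdv5 went the other way, from 40.7, 38.0 and 31.4 FPKM to 2.44, 14.9, 23.4 and 8.45 FPKM, but its adjusted p of 0.0497 was above 0.05 in 11 of 15 alternatives. In induced cells Trdv1 was at 5.72, 9.61, 2.87 and 3.66 FPKM in DN4 and 1.41, 15.6 and 5.26 FPKM in DP cells, which overlapped. The difference of the step between sources was called for Trdv1 (-3.26 ± 0.84, adjusted p = 0.0355) and for Trav3-4 (-2.91 ± 0.75, adjusted p = 0.0354). These were 2 lower steps in induced cells (3.28% of segments) against 0.597% of all genes, and 0 higher against 0.500%. Both were lost with a pseudocount of 0.1, with library quality weights, with a replicate block and when the 4 groups were fitted alone (adjusted p from 0.0529 to 0.494). Trdv1 led the delta total in 3 of 4 natural DP libraries and Trdv5 in all 3 induced DP libraries.

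Alpha segments were measured last, and their totals separated the sources at 3 stages. Thymic ETP had 7.65 and 2.04 FPKM in natural and 38.4, 52.1 and 19.5 FPKM in induced libraries. DN1 had 21.7, 24.3 and 44.4 FPKM in natural and 118, 74.7, 115 and 181 FPKM in induced libraries, while the alpha constant gene Trac was lower in induced DN1 cells (438 to 514 against 145 to 293 FPKM, -1.34 ± 0.46, adjusted p = 0.0319). The alpha totals of CD4 SP and CD8 SP cells overlapped. The alpha total of DP cells was 91.0, 182, 329 and 144 FPKM in natural and 29.1, 33.4 and 45 FPKM in induced libraries, with no overlap and a ratio of means of 0.192. Trac was lower in induced DP cells too, at 609 to 756 FPKM against 90.4 to 128 FPKM (-2.54 ± 0.46, adjusted p = 7.72e-05). Variable RNA per constant RNA overlapped in DP cells, at 14.9% to 43.6% in natural and 22.8% to 49.8% in induced libraries. It also overlapped in CD4 SP cells (12.9% to 25.6% against 13.6% to 41.5%). It did not overlap at DN1 (4.54% to 8.64% against 51.4% to 74.7%). Nor did it in CD8 SP cells, at 15.2% to 20.4% in natural libraries and 34.5% to 64.8% in the 3 induced ones with a ratio. The alpha totals include segments with dv in their symbol, such as Trav15-2-dv6-2, which can also be joined in the delta gene. At DN1 these held 24.1% to 69.6% of the alpha total in natural and 54% to 74% in induced libraries. Their share was 26.5% to 57.3% in natural and 23.8% to 74.3% in induced CD8 SP libraries. In induced thymic ETP it was 40.7% to 83.9%. How much of their RNA came from delta genes was not tested. Depth was higher in induced DP libraries (6.02 to 9.41 against 3.40 to 3.85 fragments per FPKM and kilobase), and its part in the DP values was not tested. Trac was also lower in induced CD4 SP (1105 to 1333 against 343 to 447 FPKM, -1.59 ± 0.46, adjusted p = 0.00629) and CD8 SP cells (173 to 220 against 8.89 to 78.5 FPKM, -2.21 ± 0.46, adjusted p = 0.000373).

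Among single alpha segments in DP cells, Trav13-1 was at 14.1, 2.12, 143 and 2.43 FPKM in natural libraries and listed at 0 in the 3 induced ones (adjusted p = 0.000677). Its near copy Trav13d-1 was at 27.8, 2.74, 22.7 and 1.52 FPKM in natural and 0, 0.875 and 0 FPKM in induced libraries (-2.86 ± 0.61, adjusted p = 0.000831). Natural levels varied widely but did not overlap the induced ones for either segment, and both calls were lost when the 2 groups were fitted alone (adjusted p = 0.482 and 0.428). Trav14n-3 went the other way, listed at 0 in the 4 natural and at 3.68, 6.34 and 2.97 FPKM in the 3 induced DP libraries (adjusted p = 0.00531, 0.121 with library quality weights). The median log2 difference of the tested alpha segments was -0.33.

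In CD4 SP cells the same segment had the reverse order. Trav14n-3 was at 30.8, 11.6 and 36.9 FPKM in natural and 0, 0, 0 and 9.44 FPKM in induced libraries (-3.78 ± 0.60, adjusted p = 1.13e-06). Trav8-1 was at 23.9, 4.19 and 26.5 FPKM in natural and 0, 0, 1.51 and 2.00 FPKM in induced libraries (-3.20 ± 0.42, adjusted p = 1.04e-08). Its near copy Trav8d-1 was at 16.6, 22.8 and 1.61 FPKM in natural and 0, 0.837, 0 and 0 FPKM in induced libraries (-3.15 ± 0.33, adjusted p = 2.09e-11). None of the 3 overlapped between sources. The main fit took the spread of each segment from all groups, and Trav8d-1 was above 0 in only 5 libraries, so its SE understates the spread of the natural libraries here. Fitted on the 2 groups alone, the adjusted p of the 3 segments lay between 0.0624 and 0.0839. Trav8n-2, at 10.3, 2.02 and 12.6 FPKM in natural and listed at 0 in all induced libraries, was called under every alternative (adjusted p = 3.51e-05). Trav3-4, from the 3′ part of the locus, was listed at 0 in natural and at 3.37, 0.636, 2.09 and 5.42 FPKM in induced CD4 SP cells (adjusted p = 0.00816, 0.0772 on the 2 groups alone).

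The number of alpha segments at 1 FPKM or more was lower in induced CD4 SP cells, at 9, 11, 10 and 14 of 33 against 22, 15 and 19 in natural ones. Depth was 4.34 to 5.94 in induced and 3.12 to 4.6 fragments per FPKM and kilobase in natural CD4 SP libraries. The mean alpha total was 109 FPKM in induced and 207 FPKM in natural CD4 SP cells, and Trac was lower in induced cells. The part of depth and of these lower levels in the counts was not tested. The effective number of alpha segments overlapped, at 4.57 to 8.48 in induced and 6.92 to 12.4 in natural CD4 SP libraries. The share of the leading alpha segment overlapped as well. Taken over all libraries of a group, 27 alpha segments reached 1 FPKM in natural and 18 in induced CD4 SP cells. In DP cells these numbers were 20 and 14. The groups held unequal numbers of libraries, and the alpha total was lower in induced DP cells too. Natural T cells of the bone marrow had 14, 20 and 20 alpha segments, and 18 of 20 beta segments in each library. Every natural and induced CD4 SP library had 18 beta segments as well.

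Segments of the 5′ end of the alpha locus reached 1 FPKM in few thymic libraries of either source. The table has 6 of the 7 segments listed for that end: Trav1, Trav2, Trav3-1, Trav5-1, Trav6-1 and Trav6-2. Trav5-1 reached 1 FPKM in 6 of 23 natural and 0 of 27 induced thymic libraries, and Trav3-1 in 4 and 0. Trav1 did so in 2 and 0, Trav6-2 in 1 and 0, Trav2 in 3 and 2, and Trav6-1 in 1 and 1. In CD4 SP cells the 6 segments held 10.7%, 1.34% and 2.52% of the natural alpha total and 0% in each of the 4 induced libraries, which was 1 of 7 stages with values where the groups did not overlap. The alpha total was 142 to 293 FPKM in natural and 52.9 to 182 FPKM in induced CD4 SP libraries. Since 1 fragment is often worth about 1 FPKM, a share as low as 1.34% is near the floor in the smallest induced total. The part of the lower totals in these shares was not tested. Natural DP libraries ranged from 0% to 39.4% and induced ones from 0% to 4.38%. The 4 listed segments of the 3′ end in the table (Trav18, Trav19, Trav20 and Trav21-dv12) held 13%, 5.21% and 8.39% of the alpha total in natural and 12.4%, 20.3%, 20.9% and 53.2% in induced CD4 SP cells, which overlapped. Over all thymic libraries, 25 alpha members reached 1 FPKM in both sources, 7 in natural libraries alone (Trav1, Trav3-1, Trav5-1, Trav6-2, Trav8d-1, Trav6n-5 and Trav9d-4), none in induced libraries alone and 1 in neither. Of the 7, Trav6-2, Trav6n-5 and Trav9d-4 did so in 1 of 23 natural libraries each. Trav1 and Trav8d-1 were just under the threshold in induced libraries, at up to 0.913 and 0.837 FPKM. All beta, delta and gamma members were reached in both sources.

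**Figure D5:**
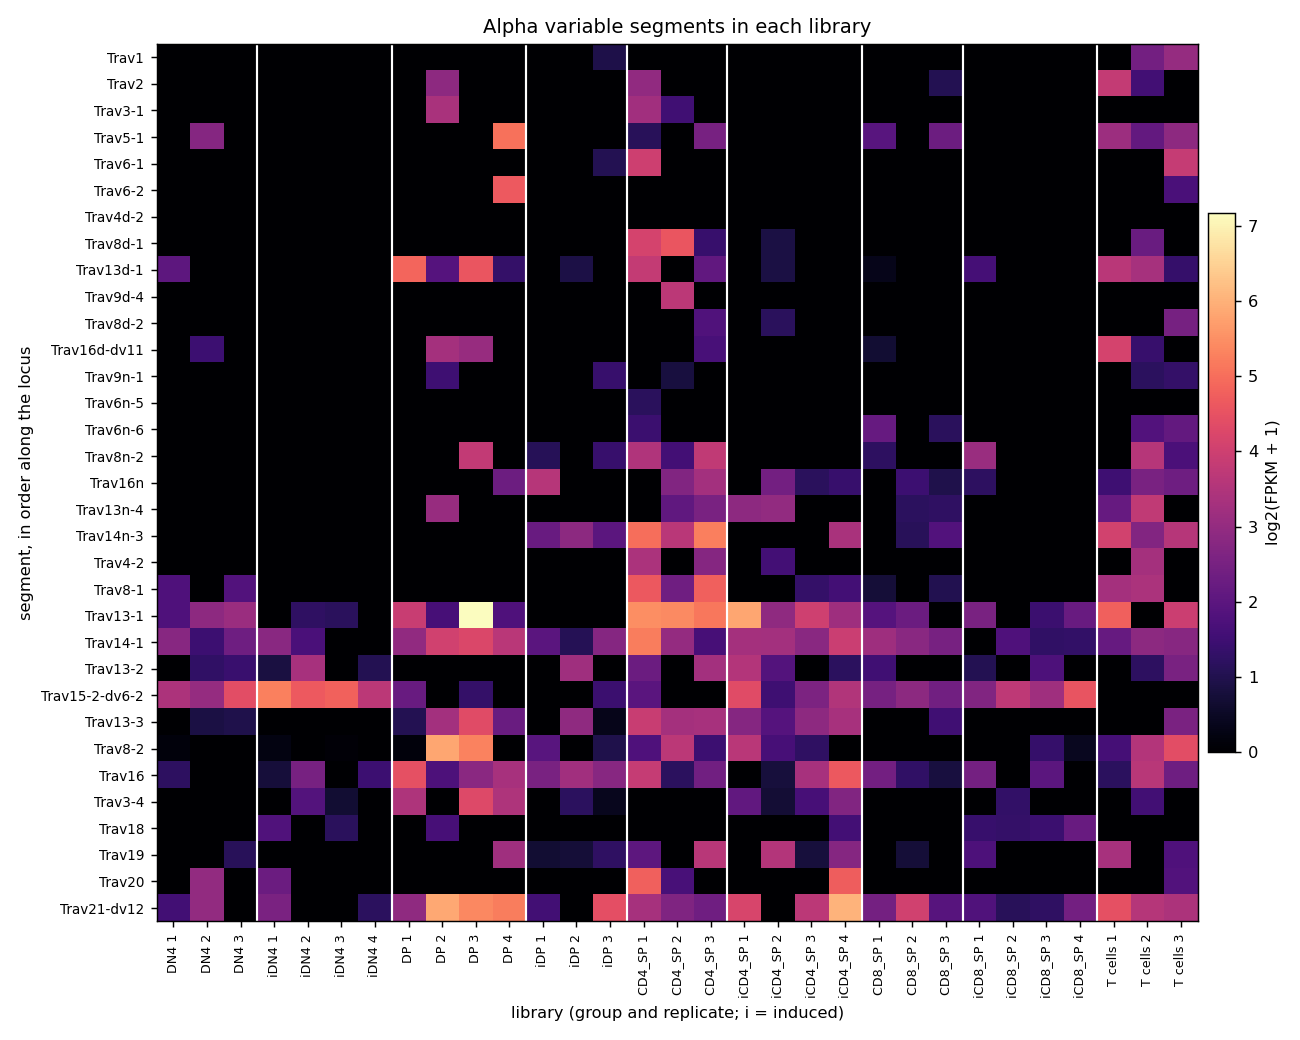
log2(FPKM + 1) of the 33 alpha segments (rows, from the 5′ to the 3′ end of the locus) in each library from DN4 to the single positive stages and in bone marrow T cells (columns, white lines between groups, i for induced). The 6 listed segments of the 5′ end hold 1.34% to 10.7% of the alpha total in natural CD4 SP and 7.97% to 23.1% in T cell libraries but 0% in induced CD4 SP libraries, and Trav15-2-dv6-2 leads every DN4 library of both sources.

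In DN4 cells Trav15-2-dv6-2 led the alpha total of every library, with 9.80, 7.25 and 20.2 FPKM in natural cells (36.1%, 18.5% and 52.4% of the alpha total) and 37.8, 24.5, 26.9 and 11.9 FPKM in induced cells (66.5%, 54.7%, 89.6% and 74.2%). The shares did not overlap, and the level did not pass the test. At earlier stages other segments led some libraries: Trav14-1 natural DN1 library 2 (33.1%), Trav14n-3 the 1 induced DN2 library with a total of at least 10 FPKM (60.8%), and Trav18 induced DN3 library 2 (32.7%). The effective number of alpha segments in DN4 cells was 4.65, 6.60 and 2.98 in natural and 2.14, 2.77, 1.24 and 1.74 in induced libraries, again without overlap. At the step to DP the segment fell to 3.67, 0, 1.5 and 0 FPKM in natural cells (-2.74 ± 0.64, adjusted p = 0.000651, 0.0681 on the 2 groups alone) and to 0, 0 and 1.69 FPKM in induced cells (-4.13 ± 0.64, adjusted p = 8.30e-07). Trav18 was called higher in induced cells at 2 early stages, at 13.3, 1.85 and 2.21 FPKM in thymic ETP and 4.86, 8.63 and 11.2 FPKM in DN3 cells, and listed at 0 in the natural libraries of both stages (adjusted p = 0.00237 and 0.000163, both lost when the 2 groups were fitted alone). It was also seen in natural early cells, in 1 of 3 DN1 libraries (1.85 FPKM) and 2 of 3 DN2 libraries (2.44 and 5.99 FPKM), and both induced DN2 libraries had it (1.67 and 1.82 FPKM).

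The step from DN3 to DN4 raised beta segments in both sources. In natural cells Trbv13-3 went from 6.30 and 5.24 FPKM to 129, 158 and 154 FPKM (4.45 ± 0.51, adjusted p = 4.05e-09, 0.0823 on the 2 groups alone). In induced cells it went from 27.8, 87.5 and 81.4 FPKM to 227, 245, 127 and 155 FPKM (1.62 ± 0.42, adjusted p = 0.00706, 0.159 without induced DN3 library 1). Neither source's stages overlapped for this segment. Calls were 8 higher (13.1%) against 3.53% of all genes and 1 lower (1.64%) against 3.20% in natural cells. In induced cells they were 7 higher (11.5%) against 3.92% and 1 lower (1.64%) against 5.11%. Of the higher calls, 7 natural and 6 induced ones were beta segments, and Trbv13-1 and Trbv13-3 were called in both (2 of 8 and 2 of 7). The lower natural call was Tcrg-V7 (21.5 and 77.8 to 8.26, 9.16 and 10.8 FPKM, adjusted p = 0.0422, lost in 11 of 13 alternatives), and the lower induced call was Trav18 (4.86, 8.63 and 11.2 to 2.48, 0, 1.23 and 0 FPKM, -2.40 ± 0.46, adjusted p = 0.000144). Trac, listed at 0 in natural DN3 cells, stood at 82.4 to 89.8 FPKM in natural DN4 cells. In induced cells it was at 0 to 11.1 FPKM in DN3 and 21.4 to 43.5 FPKM in DN4, below the natural DN4 range.

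From DP to CD4 SP, alpha segments of natural cells changed in both directions, 8 higher and 3 lower. Trav14n-3 and Trav8-1, listed at 0 in the 4 natural DP libraries, had the CD4 SP levels given above (adjusted p = 7.71e-09 and 1.96e-11), and both calls held under every alternative. Natural calls were 9 higher (14.8%) and 7 lower (11.5%), near the 13.2% and 13.5% of all genes. The 3 alpha segments called lower were Trav3-4, Trav6-2 and Trav21-dv12, and the stages overlapped for each of them. Trbv16 fell, from 314, 653, 495 and 624 FPKM to 196, 251 and 186 FPKM (-1.26 ± 0.38, adjusted p = 0.00918, 0.126 with library quality weights). Induced calls were 4 higher (6.56%) and 0 lower, against 5.90% and 3.96% of all genes, and no segment was called in both sources. Trav13-1, listed at 0 in the 3 induced DP libraries, was at 56.3, 6.64, 15.1 and 7.99 FPKM in induced CD4 SP cells (adjusted p = 0.000174, 0.0791 on the 2 groups alone). The natural and induced steps were fitted with one shared spread, and every comparison that uses the same group shares its libraries.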

How the data were processed

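Libraries of 1000 sorted cells were measured by RNA-seq after amplification of cDNA, with 2 to 4 libraries in each of 24 groups taken from the labels. Per the submitters' processing notes the authors used bcl2fastq, TopHat, Cufflinks 2.2.1 and Cuffnorm with the build NCBIM37. The deposited values are FPKM per Ensembl gene, with no parameters, annotation version or library scaling given in the sources used here. Symbols came from GENCODE vM21 (GRCm38) for 32916 of 37980 IDs (86.7%), and positions are those of GRCm38, not of the authors' build. No column was left unmatched to a sample.

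Values were used as log2(FPKM + 1), so fold changes understate those of low genes. The tests covered the 17416 genes that reached 1 FPKM in 2 or more libraries. The limma 3.58.1 model (R 4.3.3) held a mean for each group over the 75 libraries, moderated its variances with the trend and robust options, and left 51 degrees of freedom. Each gene thus had 1 spread for all groups. Groups in which a segment was 0 in every library lower it, so the SE of sparse segments can understate the spread of the compared groups. Tests were two-sided, with Benjamini-Hochberg adjustment over all genes of a comparison and a threshold of 0.05, for 16 comparisons. Totals, counts, shares and effective numbers over segments were given no test, and shares were given where a locus total reached 10 FPKM. The ratio of variable to constant RNA was added after seeing the data and given where the constant total reached 50 FPKM. Named segments are the highest of a locus in a group, the called segments with the 3 highest and 3 lowest fold changes whose groups do not overlap, and listed segments of innate-like cells and of the ends of the alpha locus; other segments were named after their values were seen. The members and gene lists were chosen with earlier results of these data known. The fit was tested on simulated data: with the DP group sizes it found 45.0% of 2-fold and 91.0% of 4-fold changes with 7.48% false calls, and with the DN3 sizes 40.0%, 83.0% and 3.15%. The simulation gave each gene the same spread in every group and changed no gene near 0. Its rates need not hold for segments that are 0 in many groups.

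Depth was placed from the low values of 4279 long genes with 1 transcript, of which 79.1% to 95.1% lay within 0.2 of a whole number of fragments. Alternatives changed the pseudocount (0.1), the filter, the scaling, library weights, a replicate block, the groups in the fit, and left out each library in turn. Sums, shares, sequences and plots were made with Biopython 1.88, matplotlib 3.10.9, pandas 2.3.3 and numpy 2.4.6 under Python 3.11.15.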

Additional observations from a re-analysis of the deposited data

Results flagged for a closer look

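In sets of 4 libraries, 2 beta totals stood apart from the other 3 of their group. MPP library 1 had a beta total of 22.18 FPKM, 64.9% of it Trbv5, against 0 to 3.69 FPKM in the other MPP libraries. Natural DP library 3 had 6216 FPKM against 5218 to 5284 FPKM. Chance alone flags about 1 set in 20, and 58 such sets were examined.

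The DN4 to DP step was called different between sources for 2 segments, and neither call was stable. The step of Trav3-4 was lower in induced cells by a log2 difference of -2.91 (SE 0.754, adjusted p = 0.0354, limma), and that of Trdv1 by -3.26 (SE 0.845, adjusted p = 0.0355). The call of Trav3-4 was lost in 14 of 22 alternatives and that of Trdv1 in 10 of 22, a replicate block among them for both.

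Segment totals of at least 5 FPKM also appeared in natural groups that enter no comparison, against a highest total of 0 in B cells and pro/pre-B cells. The alpha total of MPP library 2 was 8.978 FPKM, all of it Trav2. Beta totals were 5.315 FPKM in HSC library 1, 7.45 FPKM in HSC library 4 and 22.18 FPKM in MPP library 1. Delta totals were 5.093 and 10.93 FPKM in the 2 myeloid libraries, all of it Trdv4, and these were the shallowest libraries (0.97 and 0.986 fragments per FPKM and kilobase). The cause was not tested.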

How the results depend on the processing

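Of 141 called segment results, 22 were called under every alternative and 52 under every alternative but the fit on the compared groups alone. Other than leaving out a library, alternatives kept 901 calls, lost 216 and reversed 0; leaving out a library kept 720, lost 230 and reversed 1. The cause was not tested, except that the fit on the compared groups has fewer samples and takes the spread from those groups alone. There the counts became 0 in BM ETP (1 in the main fit), 0 in thymic ETP (6), 0 in DN2 (6), 0 in DN3 (3), 1 in DN4 (0), 1 in DP (10), 6 in CD4 SP (16), 0 and 4 in the natural and induced DN3 to DN4 steps (9 and 8), 6 in the natural DN4 to DP step (17), 3 and 0 in the natural and induced DP to CD4 SP steps (16 and 4) and 1 for the difference of the DN4 to DP step (2). A pseudocount of 0.1 gave 11 in DN1 (23), 5 in DP, 6 in CD8 SP (12), 4 in the induced DN3 to DN4 step and 0 for the difference of the step. Library quality weights gave 5 in DN4, 2 in DP, 20 in CD8 SP, 5 and 16 in the natural and induced DN3 to DN4 steps, 9 in the natural DP to CD4 SP step and 0 for the difference. Leaving out 1 library gave 0 to 1 in BM ETP, 2 to 7 in thymic ETP, 16 to 22 in DN1, 4 to 5 in DN2, 2 to 5 in DN3, 0 to 1 in DN4, 5 to 12 in DP, 11 to 17 in CD4 SP and 6 to 14 in CD8 SP. For the natural steps it gave 3 to 8, 13 to 19 and 14 to 18, for the induced steps 3 to 8, 7 to 9 and 3 to 5 (DN3 to DN4, DN4 to DP, DP to CD4 SP), and 0 to 2 for the difference. Where this left a group with 1 library, that library was assumed to vary like the others. Trbv15 at DN2 ran from -5.469 without induced library 2 to 0.011, a changed sign, without induced library 1. Without natural CD4 SP library 1, Trav6-1, and without natural DP library 4, Trav6-2, were 0 in both groups compared.

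Of 36 pairs of locus and stage, 15 had segment totals that did not overlap (15 to 17 with a library left out). For segments at 1 FPKM or more, 5 of 36 pairs did not overlap (5 to 8), and 8 at a threshold of 5 FPKM. For the leading share it was 7 of 30 (6 to 10), and 3 where the locus total had to reach 50 FPKM. For the effective number it was 8 of 30 (7 to 10), for the 5′ end of the alpha locus 1 of 7 (1 to 2), and the median likeness of shares between sources lay below the lowest within a source for 4 pairs of locus and stage (3 to 5). The counts for the leading share and the effective number include alpha at DN2, where 1 library a group cannot overlap unless equal. They also include alpha at DN3, with 1 natural library. The leading alpha share at DN2, from 1 library a group, turned to -5.671 percentage points with functional segments alone. With a replicate block, counts became 1 in DN4 and 0 for the difference of the step and stayed within 1.5 times the main count elsewhere. The numbers do not pair the libraries: none of 23 same-numbered pairs had a correlation above 0.1 (-0.040 to 0.054), so the block was not used as the main fit. Scaling moved the median of all genes by at most 0.064. Depth limits low segments most, since 1 fragment is worth about 1 FPKM.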

Other observations

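Within T cells of the bone marrow, Trbv13-2 was the leading beta segment in each of the 3 libraries, with 395, 340 and 267 FPKM and 12.5% to 17.6% of the beta total. The effective number of alpha segments there was 9.15 to 14.4, against 6.92 to 12.4 in natural and 4.57 to 8.48 in induced CD4 SP cells of the thymus. The leading alpha segment differed between libraries of the T cell group, and 8 of the 27 alpha segments that reached 1 FPKM in any of the 3 libraries did so in all of them.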
